A study of Mus musculus with 12 samples.

Results

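Cell cycle and proliferation genes were followed in the aorta of mice that lack apolipoprotein E. The set holds 45 of the 22183 genes measured, found by an exact match of their symbols, and all 45 are annotated as protein-coding. By role, 15 belong to DNA replication and entry into it, 16 are mitotic regulators (cyclins, kinases, checkpoint proteins, ubiquitin ligase parts and transcription factors), and 14 belong to chromosomes, centromeres, motors and the spindle. RNA of whole aortas, taken from the ascending segment down to the point where the vessel divides, was sequenced in 12 libraries, 4 in each of 3 groups. All mice were male, carried the ApoE-/- genotype and were 8 weeks old at the start, so no group had intact apolipoprotein E. The NFD group ate a diet with 5% fat and no cholesterol, and the HFD group one with 16% fat and 0.25% cholesterol. Mice of the HFD+TUDCA group ate the high-fat diet for 8 weeks and then received 1000 mg/kg of TUDCA (tauroursodeoxycholic acid, a bile acid used as a chemical chaperone) by stomach tube each day for 4 weeks, while NFD and HFD mice received saline. The study used 60 mice in all. Nothing in the labels says whether a library holds 1 animal or several, or that libraries came from separate animals, so p-values measure the spread between these libraries.

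A dividing cell copies its DNA in S phase and separates the copies in mitosis. The MCM proteins open the double helix, PCNA holds the polymerases on it, and ribonucleotide reductase and thymidylate synthase supply its building blocks. Cyclins A and B then switch on the kinase CDK1. Kinesin motors and passenger proteins help to separate the chromosomes, and the ubiquitin ligase activated by CDC20 ends mitosis. Most cells of an adult artery wall rest outside the cycle, while macrophages and smooth muscle cells of atherosclerotic lesions and lymphoid cells beside the vessel can divide. In whole tissue, fewer cells of a type and less RNA per cell cannot be told apart.

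Total counts were 15199317 to 22061692 per library, and 3 counts, the limit that a count of 0 allows, equal 0.151 to 0.201 CPM (counts-per-million), for counting error only. The 45 genes took 0.0200% to 0.0680% of a library's counts. A single gene had 2 to 1164 counts in a library, and 8 genes had under 10 counts in at least 1 library. Apoe had 184 to 641 counts in every library, which does not check the deletion, since a count per gene does not show the exons read. Defining markers of the artery wall were present throughout, with 1888 to 5477 CPM for 8 smooth muscle genes and 1088 to 1715 CPM for 8 endothelial genes. Genes of other tissues varied widely, also between groups. Summed CPM of 8 heart muscle genes was 3061 to 8358 in NFD, 338 to 2370 in HFD and 45 to 9766 in HFD+TUDCA. For 6 airway genes it was 2175 to 5898, 23.4 to 1703 and 5.77 to 4737 CPM. Both sums were thus lower in every HFD library than in every NFD library. The part of this difference in the results below was not tested. HFD+TUDCA replicate 4 stood apart from its group in many of the genes below, so the counts of members called, their medians and the fold changes of the members named in comparisons of HFD+TUDCA are given with and without it.

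Promoters are shown to set members of the later and the earlier steps of the cycle beside each other. The 4 were chosen after their genes' values were seen: Mki67, the member that passed the test, Cdk1 and Ccnb2 for the mitotic switch, and Mcm6 for replication. The sequences are from RefSeq on GRCm38.p6, run from 250 bases before to 50 bases after the first listed start of the gene, and are written 5′ to 3′ on the gene's strand, which is the minus strand for all 4. Capitals mark letters of 3 short motifs on either strand: the cell cycle homology region or CHR (TTTGAA or TTCGAA), the CCAAT box (CCAAT) and E2F-type letters (TTCGCGC or TTGGCGC). Mki67 lies at chr7:135716330-135716629, Cdk1 at chr10:69352863-69353162, Ccnb2 at chr9:70421505-70421804 and Mcm6 at chr1:128359656-128359955.
Mki67: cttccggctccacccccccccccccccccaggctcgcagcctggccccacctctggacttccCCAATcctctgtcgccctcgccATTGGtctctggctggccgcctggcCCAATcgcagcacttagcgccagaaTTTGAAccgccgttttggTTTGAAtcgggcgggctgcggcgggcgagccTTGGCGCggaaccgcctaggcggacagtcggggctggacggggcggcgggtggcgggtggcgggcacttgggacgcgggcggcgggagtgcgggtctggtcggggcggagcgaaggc
Cdk1: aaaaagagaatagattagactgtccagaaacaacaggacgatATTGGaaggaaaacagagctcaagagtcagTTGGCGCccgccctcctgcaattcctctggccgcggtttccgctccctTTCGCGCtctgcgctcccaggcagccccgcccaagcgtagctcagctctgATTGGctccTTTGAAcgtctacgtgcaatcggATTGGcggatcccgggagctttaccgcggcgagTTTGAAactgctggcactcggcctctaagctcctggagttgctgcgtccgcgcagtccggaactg
Ccnb2: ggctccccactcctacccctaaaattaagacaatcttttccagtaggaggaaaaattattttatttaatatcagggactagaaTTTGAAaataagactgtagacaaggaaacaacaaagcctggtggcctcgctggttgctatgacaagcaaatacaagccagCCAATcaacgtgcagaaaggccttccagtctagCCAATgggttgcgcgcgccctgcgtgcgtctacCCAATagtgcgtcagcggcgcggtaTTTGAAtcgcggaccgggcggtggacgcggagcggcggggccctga
Mcm6: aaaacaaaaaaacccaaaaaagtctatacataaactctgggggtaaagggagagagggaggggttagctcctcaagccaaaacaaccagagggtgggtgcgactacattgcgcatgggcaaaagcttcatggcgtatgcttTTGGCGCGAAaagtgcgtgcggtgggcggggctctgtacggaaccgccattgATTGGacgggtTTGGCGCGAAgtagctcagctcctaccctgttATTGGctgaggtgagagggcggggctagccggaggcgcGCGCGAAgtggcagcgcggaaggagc

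Mki67, Cdk1 and Ccnb2 each held 2 CHR and 3 CCAAT matches, and 1, 2 and 0 E2F-type matches. Mcm6 held 0 CHR matches, 2 CCAAT matches and 5 E2F-type matches, of which the neighbouring ones overlap on opposite strands. No other member promoter held as many E2F-type matches as Mcm6. Promoter entries were found for 37 of the 45 genes (the others are Cdc25c, Foxm1, Ccna2, Aurkb, Ccne2, Mcm4, Kif20a and Tpx2). A CHR match stood in 22 of the 37 (59.5%), against 19.4% of all 27025 promoters in the table, and a CCAAT match in 29 (78.4%), against 37.9%. Both stood together in 21 (56.8%, against 7.70%), and an E2F-type match in 8 (21.6%, against 3.98%). By role, CHR matches were found in 3 of 13 replication genes, 9 of 12 mitotic regulators and 10 of 12 chromosome and spindle genes, and E2F-type matches in 4, 2 and 2 of them. A match describes the letters only and does not show that a factor binds there.

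Replication genes made up most of the RNA of the set. Per length, as deposited FPKM (fragments-per-kilobase-per-million), Pcna, the sliding clamp of DNA polymerase, was highest in every group, with mean levels of 29.7 in NFD, 39.7 in HFD and 25.7 in HFD+TUDCA. Mcm7 and Mcm6, parts of the replicative helicase, Rrm1, the large subunit of ribonucleotide reductase, and Cenpa, the histone that marks centromeres, followed in each group. Cenpf and Cenpe, which act at the kinetochore, were lowest, with mean FPKM of 0.0655 and 0.0995 in NFD and 0.128 and 0.217 in HFD. Mki67, which encodes the coat protein of mitotic chromosomes known as Ki-67, ranked 40 of 45 in NFD and 37 in both other groups.

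**Figure D1:**
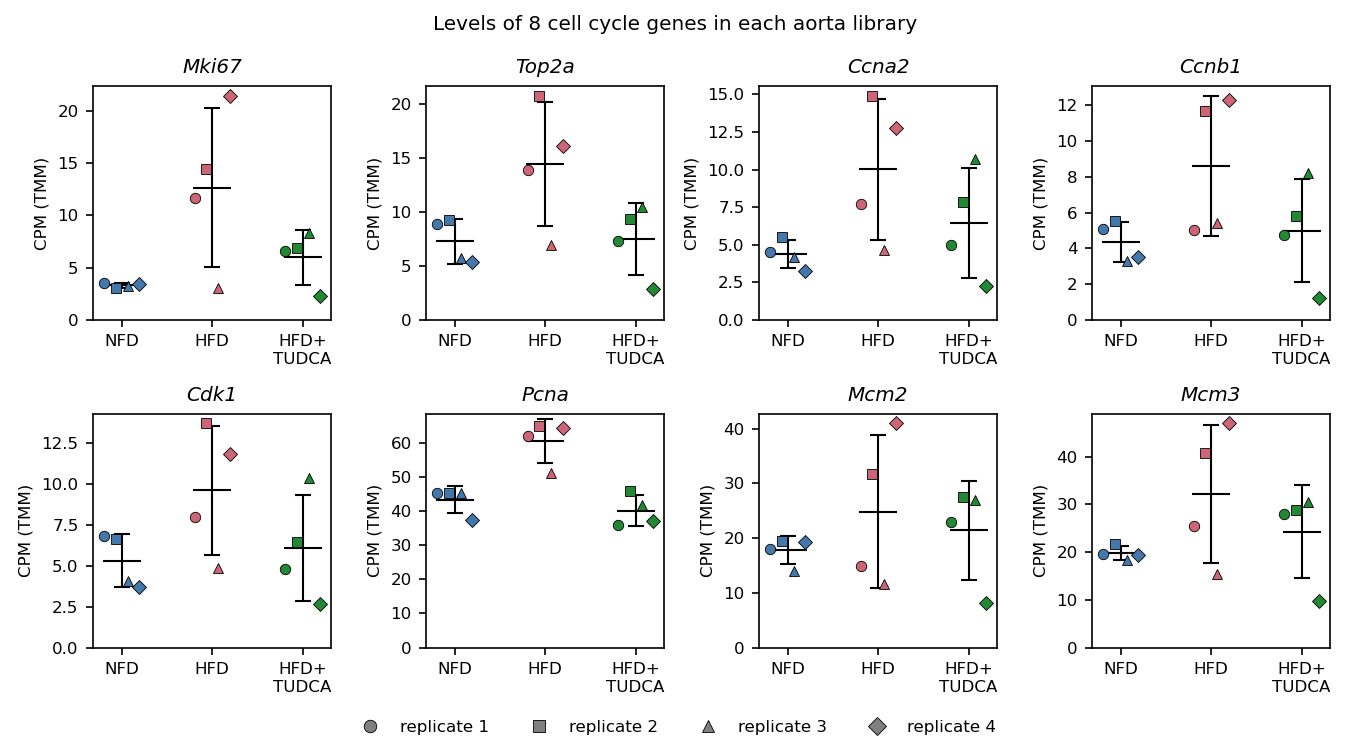
CPM (vertical axis, from 0) of 8 members, Mcm3 among them chosen after its values were seen, with each point 1 library, colours marking groups and shapes replicates, and black lines the mean ± SD of 4 libraries. NFD libraries sit close together (Mki67 at 3.00 to 3.49 CPM), whereas HFD libraries spread widely (Mki67 at 3.01 to 21.4 CPM).

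Single libraries stood high or low across most members, and the spread was wide on the high-fat diet. Their median SD of log2 CPM was 0.32 in NFD, 0.68 in HFD and 0.84 in HFD+TUDCA, against 0.22, 0.39 and 0.36 over all genes tested. Summed over the 45 genes, the NFD libraries held 381, 399, 321 and 329 CPM in replicates 1 to 4, the HFD libraries 430.5, 656, 323 and 718, and the HFD+TUDCA libraries 403, 462, 524 and 224. HFD replicate 3 thus lay within the NFD range, HFD replicates 2 and 4 lay far above it, and HFD+TUDCA replicate 4 lay below every other library. That library was the lowest of the 12 in 38 of the 45 genes (84.4%), against 20.7% of 15129 genes tested, and without it the median SD in HFD+TUDCA was 0.29, against 0.23 over all genes. HFD replicate 3 was the lowest of its group in 37 members (82.2%, against 26.0% of genes tested). HFD replicate 4 was the highest of the 12 libraries in 26 members (57.8%, against 18.1%) and HFD replicate 2 in 15 (33.3%, against 6.10%). The figures for HFD+TUDCA replicate 4 and HFD replicate 3 were the same with RLE and with upper-quartile scaling.

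**Figure D2:**
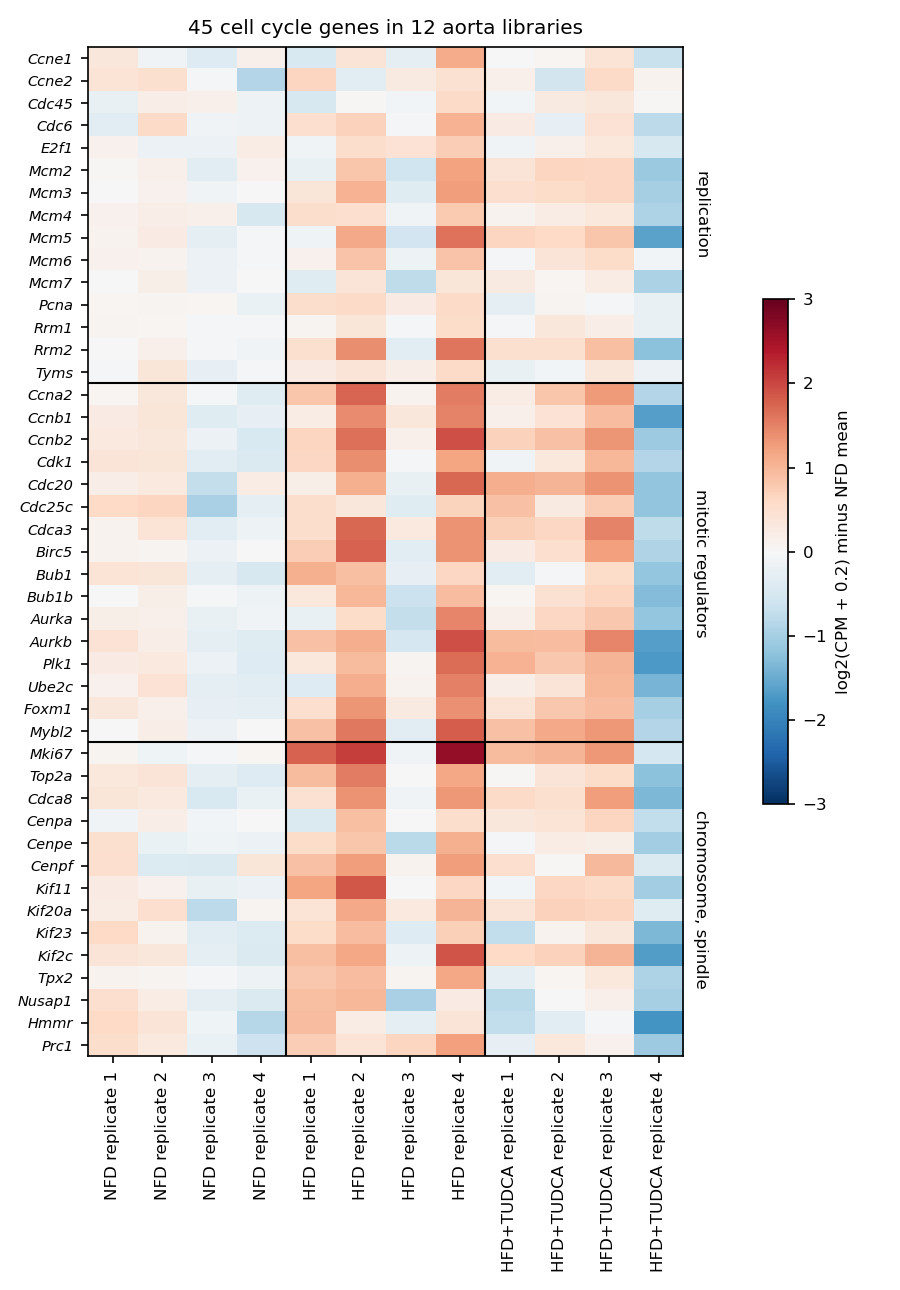
Level of each of the 45 genes (rows, by role) in each of the 12 libraries (columns), as log2(CPM + 0.2) minus the mean of the NFD libraries, with red higher and blue lower. HFD replicates 2 and 4 are red across most rows, HFD replicate 3 is close to NFD, and HFD+TUDCA replicate 4 is blue across most rows.

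Markers of several immune cell types moved with the members between libraries or between groups, though some did so in only 1 of these ways. Summed B cell markers (6 genes, such as Cd79a) were 372, 385, 308 and 285 CPM in NFD replicates 1 to 4, 236, 768, 124 and 1024 in HFD, and 687, 913, 676 and 65.1 in HFD+TUDCA. T cell markers (8 genes) were 68.3 CPM in HFD replicate 3 and 28.2 CPM in HFD+TUDCA replicate 4, against 360 and 335 CPM in HFD replicates 2 and 4 and 202 to 278 CPM in NFD. HFD replicate 1 did not follow the members. Its T cell markers stood at 76.7 CPM and its B cell markers also lay below the NFD range, while its members summed to 430.5 CPM, above every NFD library. Plasma cell markers (7 genes) were 506 to 708 CPM in NFD, 650 CPM in HFD replicate 3 and 2122 and 1523 CPM in its replicates 2 and 4, and they stood at 296 CPM in replicate 4 of HFD+TUDCA. The HFD library lowest in the members was therefore also the lowest of its group for these 3 lists, and the same held for HFD+TUDCA replicate 4 in its group. Macrophage markers (10 genes) did not follow this order within HFD, at 2769, 1769, 2178 and 1836 CPM in replicates 1 to 4, but every HFD library lay above NFD (836 to 1106 CPM), and HFD+TUDCA held 1030, 1063, 1488 and 553 CPM. In HFD vs NFD 7 of the 10 were called higher by edgeR with a median log2 fold change of 1.23, and in HFD+TUDCA vs HFD 0 were called, with a median of -1.13 and 9 lower at an unadjusted edgeR p under 0.05. Neutrophil markers (8 genes) were 547, 673, 259 and 1064 CPM in HFD, 51.7 to 63.8 CPM in NFD, and 79.4, 76.3, 105 and 119 CPM with HFD+TUDCA, where replicate 4 was the highest of its group and not the lowest. In HFD vs NFD 7 of the 8 were called higher (median log2 fold change 4.47), and in HFD+TUDCA vs HFD 0 were called, with a median of -3.46 and 7 lower at an unadjusted edgeR p under 0.05. The estimates of both lists thus moved between groups in the same directions as those of most members. Medians of B cell, T cell and plasma cell markers were 0.67, -0.30 and 1.20 in HFD vs NFD. In HFD+TUDCA vs HFD they were 0.09, -0.27 and -0.37. T cell markers thus went against the members in the first comparison and B cell markers in the second. Dendritic cell markers (6 genes) were 71.6, 80.0, 127 and 123 CPM in HFD, with replicate 3 the highest. Smooth muscle markers were highest in HFD+TUDCA replicate 4, at 5477 CPM against 2450 to 2816 CPM in the rest of its group, and lowest in HFD replicate 2, at 1888 CPM. Mitochondrial genes took 19.2% of the counts in HFD+TUDCA replicate 4, the highest share, and 8.56% in HFD replicate 4, the lowest. None of these lists held a marker at 0 in all libraries. Their part in the results below was not tested.

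**Figure D3:**
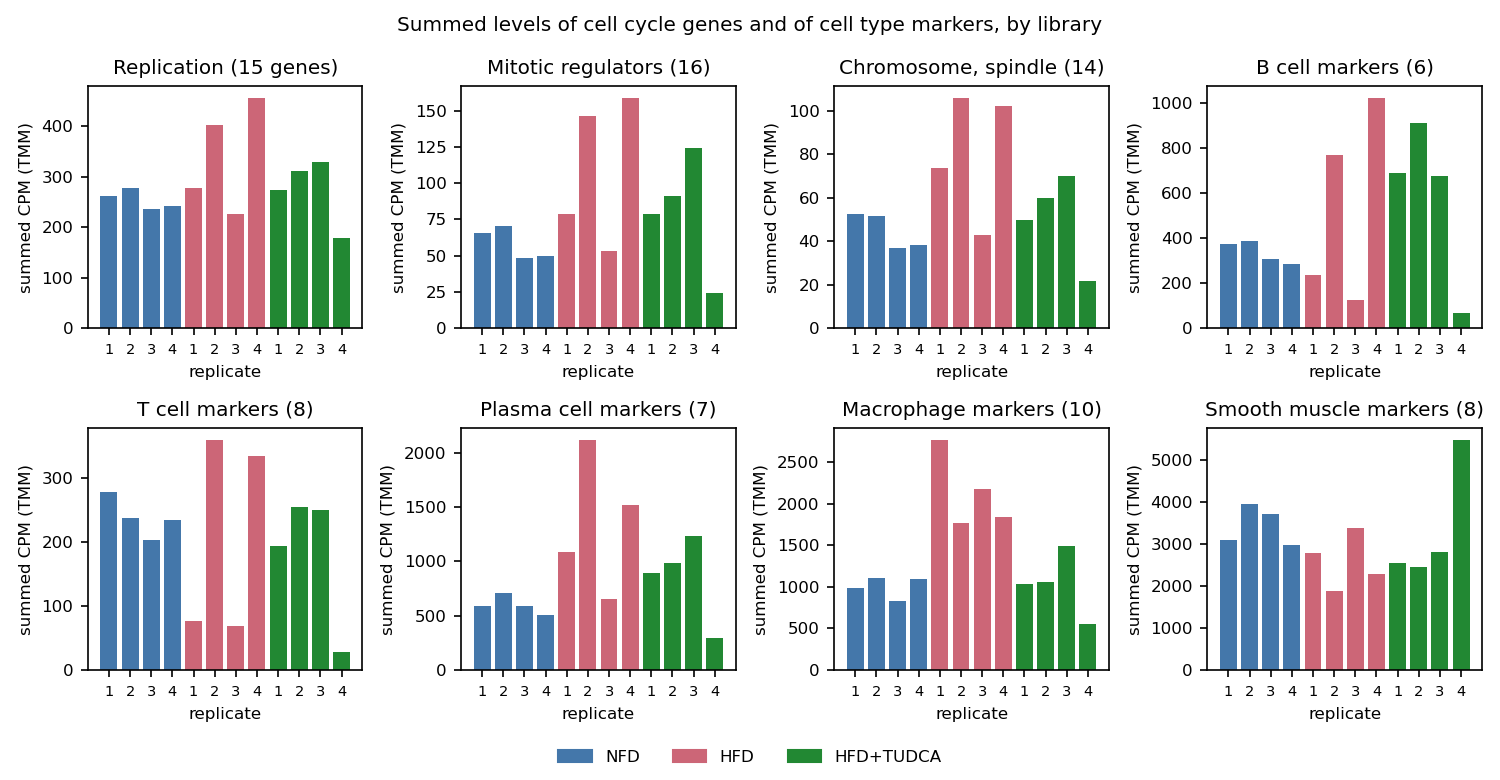
Summed CPM of the members by role and of 5 marker lists, with each bar 1 library and colours marking the groups. Mitotic members are lowest of their group but within the NFD range in HFD replicate 3, and below every other library in HFD+TUDCA replicate 4. B cell markers are low in both of these libraries and T cell markers in these and in HFD replicate 1, while smooth muscle markers are highest in HFD+TUDCA replicate 4.

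Comparing HFD with NFD asks what the high-fat diet did to these genes. Nearly all had a higher estimated level on the high-fat diet, but the libraries overlapped and 1 of 45 passed the test. Mki67 rose 3.88-fold, from 3.28 ± 0.218 to 12.6 ± 7.61 CPM (SD, n = 4), with a log2 fold change of 1.95 ± 0.48 (SE) and an edgeR adjusted p of 0.0490. That is 2.22% of the members, against 3.18% of the 14918 genes tested that were called higher, so the count of calls was near the background. 0 members were called lower, against 1.64% of genes. At an unadjusted edgeR p under 0.05, 21 of 45 were higher (46.7%), against 12% of all genes, and 0 were lower, against 8.99%. The log2 fold change was positive in 44 of 45, against 53.9% of genes, with a median of 0.76, against 0.04 over all genes. The groups' libraries did not overlap in 1 member, Pcna (2.22%, against 8.1% of genes higher without overlap).

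Mki67 measured 3.49, 3.00, 3.22 and 3.42 CPM in NFD replicates 1 to 4, then 11.7, 14.4, 3.01 and 21.4 CPM in HFD, and 6.54, 6.89, 8.32 and 2.23 CPM with HFD+TUDCA. HFD replicate 3 fell inside the NFD range, and the other 3 HFD libraries lay above it. The gene (ENSMUSG00000031004) spans chromosome 7, 135689784 to 135716361, on the minus strand of GRCm38. Its call held in 2 of 16 alternative fits, DESeq2 and the fit without HFD replicate 3, with log2 fold changes of 0.70 to 2.27 and adjusted p of 0.00108 to 0.151 over the 16.

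The 15 replication genes had the smallest median log2 fold change of the 3 roles, 0.45, and 0 of them were called. Pcna stood at 45.2, 45.4, 45.2 and 37.4 CPM in NFD, 61.9, 64.8, 51.1 and 64.3 CPM in HFD and 35.8, 45.8, 41.9 and 37.1 CPM with HFD+TUDCA. All 4 HFD libraries lay above every library of the other groups, although the difference from NFD did not pass (log2 fold change 0.49 ± 0.14, edgeR adjusted p = 0.0709). Mcm2, another subunit of the helicase, was 18.1, 19.5, 14 and 19.3 CPM in NFD, 15, 31.7, 11.6 and 41.0 CPM in HFD and 23.0, 27.5, 27.0 and 8.05 CPM with HFD+TUDCA. HFD replicates 2 and 4 lay above the NFD range here, replicate 1 inside it and replicate 3 below it, and the log2 fold change was 0.49 (edgeR adjusted p = 0.495), or 0.10 without HFD replicate 4. Rrm2, the regulated subunit of ribonucleotide reductase, was 5.31 to 6.47 CPM in NFD and 4.55 to 17.8 CPM in HFD. Mcm7 had the only negative fold change of the set, at -0.01, and Cdc45, which joins the helicase at the replication fork, stood at 0.06. Ccne1 and Ccne2, the E cyclins that start S phase, differed by 0.32 and 0.25. Mcm6 was 31.0 to 38.1 CPM in NFD and 38.2, 64.1, 31.5 and 63.4 CPM in HFD, a difference of 0.49. The helicase subunits Mcm3, Mcm4 and Mcm5 stood at 0.71, 0.45 and 0.78, and Cdc6, which loads the helicase, at 0.60. E2f1, the transcription factor of S phase entry, Rrm1 and Tyms, the thymidylate synthase, stood at 0.44, 0.27 and 0.35.

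The 16 mitotic regulators had a median log2 fold change of 0.94 with 0 called. At an unadjusted edgeR p under 0.05, 10 of them were higher (62.5%, against 12% of all genes). Ccna2, the cyclin of S phase and early mitosis, was 4.49, 5.50, 4.17 and 3.26 CPM in NFD, 7.72, 14.9, 4.61 and 12.7 CPM in HFD and 5.00, 7.84, 10.7 and 2.23 CPM with HFD+TUDCA. HFD replicate 3 again overlapped NFD, and the log2 fold change was 1.20 ± 0.36 (edgeR adjusted p = 0.0931). Ccnb2, a B cyclin that activates CDK1, was 2.96, 3.11, 2.11 and 1.68 CPM in NFD and 3.86, 8.02, 2.67 and 9.69 CPM in HFD, a log2 fold change of 1.30 ± 0.43 (edgeR adjusted p = 0.119). Ccnb1, the other main B cyclin, was 5.08, 5.55, 3.27 and 3.52 CPM in NFD and 5.03, 11.7, 5.42 and 12.3 CPM in HFD. Here 2 of the 4 HFD libraries lay within the NFD range (log2 fold change 0.98, edgeR adjusted p = 0.149). Cdk1, the mitotic kinase itself, was 6.82, 6.67, 4.07 and 3.73 CPM in NFD and 7.97, 13.8, 4.88 and 11.8 CPM in HFD (0.86, edgeR adjusted p = 0.205). Cdca3, which helps trigger entry into mitosis, was 5.13, 6.42, 3.72 and 4.26 CPM in NFD and 6.93, 16.1, 5.95 and 12.6 CPM in HFD (1.09, edgeR adjusted p = 0.108). The transcription factors of this programme had log2 fold changes of 0.97 for Foxm1 and 1.27 for Mybl2, with edgeR adjusted p of 0.123 and 0.131. Birc5, the passenger protein survivin, and Aurkb, the kinase it guides, stood at 1.14 and 1.13, with edgeR adjusted p of 0.152 and 0.224. The kinases Plk1, Aurka and Bub1 differed by 0.92, 0.52 and 0.78, and Bub1b, a spindle checkpoint protein, by 0.55. Cdc20 and Ube2c, which drive the ubiquitin step that ends mitosis, differed by 0.85 and 0.76, and Cdc25c, the phosphatase that activates CDK1, by 0.28. None of these 7 passed.

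The 14 chromosome and spindle genes had a median log2 fold change of 0.80, with 1 of them called, Mki67. At an unadjusted edgeR p under 0.05, 8 were higher (57.1%, against 12% of all genes). Tpx2, which builds spindle microtubules and activates Aurora A, was 4.39, 4.28, 3.92 and 3.63 CPM in NFD, 7.23, 7.85, 4.28 and 9.27 CPM in HFD and 3.29, 4.23, 5.12 and 2.03 CPM with HFD+TUDCA (log2 fold change 0.83 ± 0.26, edgeR adjusted p = 0.107). Top2a, the topoisomerase that untangles sister chromatids, was 8.83, 9.22, 5.68 and 5.31 CPM in NFD, 13.9, 20.8, 6.95 and 16.1 CPM in HFD and 7.28, 9.29, 10.4 and 2.89 CPM with HFD+TUDCA. Its HFD replicate 3 lay inside the NFD range and the other 3 HFD libraries above it (1.00 ± 0.34, edgeR adjusted p = 0.132). The kinesins Kif11, Kif2c, Kif20a and Kif23, motors of the spindle and of cell division, had log2 fold changes of 1.15, 1.17, 0.72 and 0.52. The centromere genes Cenpf, Cenpe and Cenpa stood at 1.07, 0.65 and 0.33, and Cdca8, the passenger protein borealin, at 0.88. Nusap1, Hmmr and Prc1, which bind spindle microtubules, stood at 0.47, 0.33 and 0.77. None of these 11 passed.

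HFD replicate 3 was the lowest of its group in 37 members, so leaving it out raises the HFD estimates of these same genes. Leaving out HFD replicate 3 raised the count of members called higher from 1 to 12 of 45 (26.7%), against 5.01% of 15160 genes, with 0 lower, against 2.78%. At an unadjusted edgeR p under 0.05, 31 were higher (68.9%, against 14.1%) and 0 lower (11.3% of genes). The 12 were Birc5, Ccna2, Ccnb2, Cdca3, Kif11, Mcm3, Mki67, Mybl2, Pcna, Rrm2, Top2a and Tpx2, and the median log2 fold change was 0.93. Each of the other 7 fits that left out 1 library called 0 members, with medians of 0.43 to 0.87. The lowest of these was the fit without HFD replicate 4. DESeq2 on all 8 libraries called 6 members higher (Ccna2, Ccnb2, Cdca3, Mki67, Pcna and Tpx2), or 13.3%, against 5.98% of 16481 genes.

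**Figure D4:**
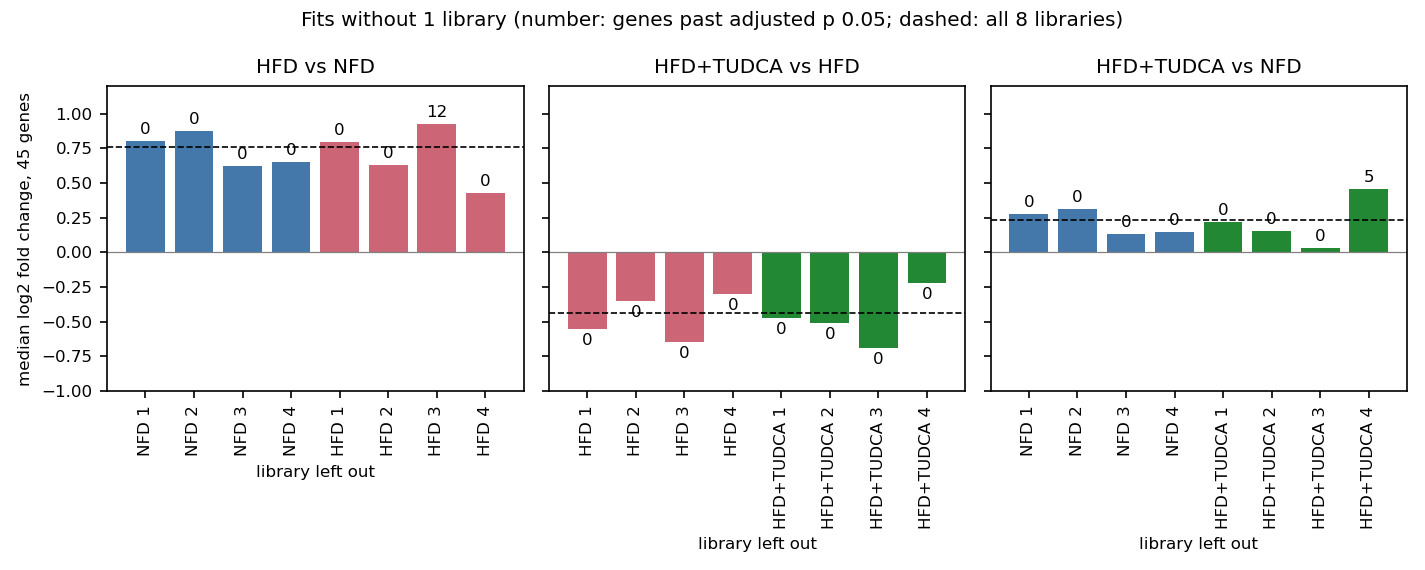
Median log2 fold change of the members (bars) in edgeR fits without 1 library (horizontal axis), with the number of members called above or below each bar and dashed lines at the median from all 8 libraries. HFD vs NFD gives 12 calls without HFD replicate 3, HFD+TUDCA vs NFD gives 5 without HFD+TUDCA replicate 4, and all other omissions give 0.

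Comparing HFD+TUDCA with HFD asks what the bile acid changed on the high-fat diet. 0 of the 45 members passed, and 0 of all 14587 genes did (0%). Estimates were lower with TUDCA in 42 of 45 (50% of genes had positive estimates), with a median log2 fold change of -0.44, against 0.00 over all genes, and this comparison shares its HFD libraries with the preceding one. At an unadjusted edgeR p under 0.05, 3 members were lower (Pcna, Tpx2 and Prc1; 6.67%, against 6.54% of genes) and 0 higher (5.42% of genes), so these counts were near the background. The libraries did not overlap in 2 members, Pcna and Prc1 (4.44%, against 4.78% of genes lower without overlap). By role the median was -0.35 for replication genes, -0.43 for mitotic regulators and -0.85 for chromosome and spindle genes, and without HFD+TUDCA replicate 4 it was -0.14, -0.13 and -0.62.

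The lowest p was that of Pcna, with the values given above and a log2 fold change of -0.56 ± 0.14 (edgeR adjusted p = 0.246), and DESeq2 called it lower. It was the 1 member called of the 40 to which DESeq2 gave an adjusted p (2.50%, against 1.99% of 13988 genes called lower, which is near the background). Prc1, which bundles the microtubules of the central spindle, was 3.92, 3.12, 3.68 and 5.62 CPM in HFD and 1.91, 2.91, 2.53 and 0.962 CPM with HFD+TUDCA, against 3.38, 2.85, 1.96 and 1.42 CPM in NFD (-0.95 ± 0.38, edgeR adjusted p = 0.377). All HFD+TUDCA libraries lay below all HFD libraries, and within or below the NFD range. Tpx2 and Top2a differed by -0.94 ± 0.35 and -0.92 ± 0.43, with edgeR adjusted p of 0.353 and 0.431. Mki67 differed by -1.05 ± 0.56 (edgeR adjusted p = 0.488). Hmmr, which binds hyaluronan and spindle microtubules, had the most negative estimate, -1.18 ± 0.56 (edgeR adjusted p = 0.442). That estimate rests on 10, 12, 16 and 3 counts in HFD+TUDCA, where replicate 4 was at the 3-count limit given above. Hmmr was 2.08, 1.22, 0.802 and 1.38 CPM in HFD and 0.531, 0.758, 0.965 and 0.152 CPM with HFD+TUDCA. In NFD it was 1.64, 1.37, 0.904 and 0.473 CPM, and the libraries of HFD and HFD+TUDCA overlapped. Ccnb1, Cdk1 and Mcm2 differed by -0.76, -0.64 and -0.18, with edgeR adjusted p of 0.589, 0.587 and 0.904. Without HFD+TUDCA replicate 4, 0 members passed, the median was -0.22, 9 estimates were positive, 1 had an unadjusted edgeR p under 0.05 on the lower side (2.22%, against 9.33% of genes) and 0 on the higher side (6.92% of genes), and Pcna remained the member with the lowest p (-0.52 ± 0.16, edgeR adjusted p = 0.264). Prc1 and Tpx2 then stood at -0.70 and -0.73, with unadjusted edgeR p of 0.0574 and 0.0529. Top2a, Mki67 and Hmmr stood at -0.65, -0.77 and -0.84. Ccnb1 and Cdk1 stood at -0.42 and -0.38, and the sign of Mcm2 turned, to 0.09.

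Comparing HFD+TUDCA with NFD asks how far treated aortas differ from those on the normal diet. Of 44 members tested (Bub1, a spindle checkpoint kinase, was below the count filter), 0 passed, against 0.1% of 14942 genes called higher and 0.0937% called lower. At an unadjusted edgeR p under 0.05, 1 member was higher, Mki67 (2.27%, against 6.79% of genes), and 0 were lower (4.66% of genes). The median log2 fold change was 0.23, against 0.01 over all genes, and 31 estimates were positive, against 50.7% of genes. The libraries did not overlap in 0 members, against 3.88% of genes higher and 3.43% lower without overlap. Mki67 had the lowest p (0.86 ± 0.37, edgeR adjusted p = 0.410), followed by Mybl2 (0.87 ± 0.45, edgeR adjusted p = 0.540). Cdca3, Cdc20 and Ccnb2 stood at 0.71, 0.80 and 0.68. In HFD+TUDCA replicates 1 to 4, Cdca3 was 7.92, 7.46, 13.9 and 2.74 CPM, Cdc20 9.83, 9.29, 11.7 and 1.87 CPM and Ccnb2 3.99, 4.55, 6.27 and 1.01 CPM. In each of the 3 genes replicates 1 to 3 lay above the NFD range and replicate 4 below it. Ccnb1 was 4.73, 5.82, 8.20 and 1.22 CPM and Cdk1 4.78, 6.45, 10.4 and 2.68 CPM, with replicate 4 again below the NFD range. Hmmr stood at -0.88 ± 0.59 (edgeR adjusted p = 0.665). Top2a, Ccnb1, Cdk1, Mcm2 and Pcna differed by 0.04, 0.19, 0.19, 0.27 and -0.11, and the signs of Top2a, Ccnb1 and Cdk1 changed under some alternatives.

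HFD+TUDCA replicate 4 was the lowest of the 12 libraries in 38 of the 45 members, so leaving it out raises the HFD+TUDCA estimates of these same genes. Calls without it are therefore no separate support for a rise, and leaving out any other library gave 0 calls among the members. Without this library the picture for this comparison was different. 5 of 45 members were called higher (11.1%, against 2.77% of 15125 genes called higher), with 0 lower (1.74% of genes), and 19 had an unadjusted edgeR p under 0.05 in the direction of HFD+TUDCA (42.2%, against 12.2%), with 0 in the other (13.6% of genes). Mki67 was 3.00 to 3.49 CPM in NFD and 6.54, 6.89 and 8.32 CPM in the 3 remaining HFD+TUDCA libraries, and rose with a log2 fold change of 1.13 ± 0.20 (edgeR adjusted p = 0.0173). Mybl2, a transcription factor of late cell cycle genes, was 2.01, 2.34, 1.76 and 2.05 CPM in NFD and 3.93, 4.68 and 5.30 CPM (1.16 ± 0.24, edgeR adjusted p = 0.0317). Mcm3, a subunit of the helicase, was 19.6, 21.7, 18.3 and 19.4 CPM in NFD and 28.1, 28.8 and 30.4 CPM (0.54 ± 0.11, edgeR adjusted p = 0.0326). All 3 remaining libraries lay above the NFD range in these genes. Mcm5, another helicase subunit, was 17.3, 19.2, 13.1 and 15.3 CPM in NFD and 25.2, 24.6 and 28.9 CPM (0.68 ± 0.15, edgeR adjusted p = 0.0395). Cdc20, the activator of the ubiquitin ligase of mitosis, was 5.23, 5.55, 2.66 and 5.26 CPM in NFD and 9.83, 9.29 and 11.7 CPM (1.12 ± 0.26, edgeR adjusted p = 0.0410). In the left-out replicate 4 these 5 genes stood below the NFD range, at 2.23, 1.01, 9.73, 5.12 and 1.87 CPM in the order given. Of the other members named for this comparison, Cdca3 and Ccnb2 then stood at 0.98 and 0.98, Hmmr at -0.56, Top2a at 0.29, Ccnb1 at 0.50, Cdk1 at 0.42, Mcm2 at 0.52 and Pcna at -0.09, and none of these passed. The median over all members was 0.46, against -0.04 over all genes. By role it was 0.16 for replication genes, 0.73 for mitotic regulators and 0.35 for chromosome and spindle genes, against 0.03, 0.47 and 0.10 with replicate 4. B cell markers, at 676 to 913 CPM in those 3 libraries and 285 to 385 CPM in NFD, were also higher in them. So were plasma cell markers (891 to 1232 against 506 to 708 CPM), while T cell markers were not (194 to 255 against 202 to 278 CPM). The part of these markers in this result was not tested.

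Other genes of the cycle gave few calls. Of 30 other replication genes tested in HFD vs NFD, 0 passed and the median log2 fold change was 0.31, with the lowest p for Tk1, Fen1 and Mcm10 (0.86, 0.72 and 1.02), which act in thymidine salvage, fragment joining and origin firing. Of 45 other mitosis genes, 0 passed and the median was 0.65, with the lowest p for Cep55, Kif18b and Mad2l1 (1.83, 1.60 and 0.63), which serve abscission, chromosome movement and the spindle checkpoint. Without HFD replicate 3, 4 of 76 genes of both lists were called higher (5.26%, against 5.01% of all genes, which is the background level). Of 25 D cyclins, G1 kinases, pocket proteins and E2F partners, 0 passed with a median of 0.15, and Cdk6, the kinase partner of D cyclins, had the lowest p (0.67 ± 0.18, edgeR adjusted p = 0.0686). It was 11.7 to 17.6 CPM in NFD and 18.1 to 26.2 CPM in HFD. Myc, which drives growth and division, followed (1.56 ± 0.47, edgeR adjusted p = 0.0977), at 9.57 to 10.9 CPM in NFD, 16.1 to 17.7 CPM in 3 HFD libraries and 70.2 CPM in HFD replicate 4, and then Tfdp2, an E2F partner (-0.47).

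Among genes that restrain division, 1 rose and 1 fell in HFD vs NFD of the 18 CDK inhibitors and arrest genes tested (5.56% each way, against 3.18% of all genes higher and 1.64% lower), so these counts were close to the background. Gadd45a, a stress-induced gene that acts in growth arrest and DNA repair, was 2.75, 2.09, 2.36 and 2.37 CPM in NFD, 6.50, 5.68, 6.15 and 8.98 CPM in HFD and 2.50, 3.16, 2.11 and 3.85 CPM with HFD+TUDCA. All HFD libraries lay above all others, and the rise over NFD was 1.52 ± 0.23 on the log2 scale (edgeR adjusted p = 0.00925). Tob1, an antiproliferative gene, was 110, 120, 154 and 99.2 CPM in NFD, 43.5, 56.6, 49.8 and 57.7 CPM in HFD and 75.9, 77.5, 55.0 and 105 CPM with HFD+TUDCA. It fell by 1.21 ± 0.16 on the log2 scale (edgeR adjusted p = 0.00478), with no overlap. HFD replicate 3, which lay near NFD for the members, lay with the other HFD libraries for both genes. Over fits that left out 1 library, Tob1 passed in all 8 (edgeR adjusted p 0.00618 to 0.0230), while Gadd45a missed the threshold without NFD replicate 3 (edgeR adjusted p = 0.0508). Cdkn1c, an inhibitor of CDKs, was 29.3 to 40.6 CPM in NFD and 19.3 to 25.2 CPM in HFD (-0.59 ± 0.15, edgeR adjusted p = 0.0536), and Cdkn1a, the p21 inhibitor, 128 to 225 and 96.7 to 298 CPM. In HFD+TUDCA vs HFD 0 genes of the 4 lists passed, with medians of -0.14, -0.52, -0.07 and -0.12 in the order above, and Gadd45a at -1.20 ± 0.29 (edgeR adjusted p = 0.237) and Tob1 at 0.63 ± 0.21 (edgeR adjusted p = 0.324). In HFD+TUDCA vs NFD 0 passed as well, with medians of 0.11, 0.13, 0.03 and 0.07. Without HFD+TUDCA replicate 4, 1 of 76 other replication and mitosis genes was called higher in this comparison (1.32%, against 2.77% of all genes).

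Reads of 12 members could be shared with another listed gene, since their exons overlap it in the annotation and the strand of counting is not given in the sources used here. They are Ccna2 (Exosc9), Cdc20 (Elovl1), Mcm7 (Cops6 and Ap4m1), Cdc45 (Ufd1), Ccne2 (Ints8), Foxm1 (Tex52 and Gm44596), Kif20a (Cdc23), Prc1 (Rccd1), Cdc25c (Gm3550), Ube2c (Tnnc2), Nusap1 (Oip5) and Cdca8 (9930104L06Rik), and their values above are uncertain to that extent. Tyms, Kif20a and Prc1 had counts that were not whole numbers in every library, and Ccna2 in 11.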

How the data were processed

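Libraries were prepared from oligo(dT)-selected RNA with the NEBNext Ultra kit, per the labels' protocols. The authors deposited a count and an FPKM value per gene and library, on GRCm38 per the submitters' processing notes. Aligner, counter and strand setting are not given in the sources used. The deposited counts were taken to be expected counts, since 8.53% to 9.43% of a library's values were not whole, and were rounded. Groups came from the sample titles. The test was edgeR 4.0.16 (R 4.3.3) quasi-likelihood with TMM scaling on the 8 libraries compared, after filterByExpr (minimum count 10, total 15), with Benjamini-Hochberg adjustment over all genes tested and a threshold of 0.05. TMM factors for CPM came from the 12 libraries together (0.895 to 1.08). Alternatives were RLE and upper-quartile scaling, DESeq2 1.42.0, no filter, 1 fit of 12 libraries, a replicate block, limma-trend (3.58.1) on log2(FPKM + 1) and log2(FPKM + 0.1), and each library left out in turn. The steps were tested on counts simulated for HFD vs NFD, drawn separately for each gene. That simulation does not show how the test behaves where 1 library is shifted across many members. Coordinates are those of GENCODE M21. The members, the gene lists and the rule for named genes (members called, else the 6 with the lowest p, plus Mki67, Top2a, Ccnb1, Cdk1, Mcm2 and Pcna) were chosen with earlier results of these data known, and Mcm3, Mcm5, Rrm2, the kinesins, Foxm1, Birc5, Aurkb and Cdkn1a were picked after their values were seen. The test used did not pair libraries by replicate number. Same-numbered libraries deviated together in HFD vs NFD but not in the other comparisons, so pairing in HFD vs NFD was not excluded. With a replicate block Mki67 did not pass there (edgeR adjusted p = 0.0956). A gene of the B cell marker list is not reported here and was left out of its sum.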

Additional observations from a re-analysis of the deposited data

Results flagged for a closer look

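In groups of 4 libraries, 10 of 219 tested gene levels and list sums held 1 library far from the other 3. Of these, 5 were cell cycle genes. Chance marks about 1 in 20, so a count of 10 was near the chance level. Mcm3 stood at 9.73 CPM in HFD+TUDCA replicate 4, against 28.1 to 30.4 CPM in the others of its group. Mcm4, a helicase subunit, stood at 7.78 CPM in NFD replicate 4 (others 11.9 to 12.6), and Pcna at 37.4 CPM in the same library (others 45.2 to 45.4). Cdc20 stood at 2.66 CPM in NFD replicate 3 (others 5.23 to 5.55). Cenpe was high in NFD replicate 1, at 1.11 CPM (others 0.611 to 0.653). In HFD+TUDCA replicate 4 the sum of other replication genes was 198 CPM (others 331 to 349) and that of smooth muscle markers 5477 CPM (others 2450 to 2816). Markers of stratified and basal epithelium summed to 882 CPM in NFD replicate 4 (others 19.5 to 57.2), 817 CPM in HFD replicate 2 (others 7.82 to 16.0) and 706 CPM in HFD+TUDCA replicate 3 (others 2.03 to 41.5).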

How the results depend on the processing

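The count of members called higher in HFD vs NFD was 1 with the test used, 0 with RLE scaling, upper-quartile scaling, no filter, 1 fit of 12 libraries, the replicate block and both limma-trend fits, and 6 with DESeq2 (13.3%, against 5.98% of all genes). Leaving out 1 library gave 0 to 12, with the 12 from leaving out HFD replicate 3 and 0 from every other library. In HFD+TUDCA vs HFD, DESeq2 called 1 of 40 members lower (Pcna; 1.99% of all genes) and every other alternative 0. In HFD+TUDCA vs NFD, leaving out 1 library gave 0 to 5 members higher, with the 5 from leaving out HFD+TUDCA replicate 4. Median log2 fold changes over fits without 1 library were 0.43 to 0.93, -0.69 to -0.22 and 0.03 to 0.46 in the 3 comparisons. The sign turned for Mcm2 in HFD+TUDCA vs HFD (-0.42 to 0.15 over fits without 1 library). In HFD+TUDCA vs NFD it turned for Top2a (-0.16 to 0.29 without 1 library; -0.064 with the replicate block, -0.057 and -0.15 with limma-trend on FPKM), Ccnb1 (-0.15 to 0.50; -0.034, -0.045 and -0.17) and Cdk1 (-0.20 to 0.42; -0.077 and -0.11 with limma-trend), none of which passed the test in that comparison. The cause was not tested. Same-numbered libraries correlated at 0.0917 to 0.402 in HFD vs NFD and at -0.473 to -0.0856 in the other comparisons. In HFD vs NFD 6 of 8 libraries correlated best with their own number, against 0 of 8 in each other comparison. With the replicate block Mki67 did not pass in HFD vs NFD (log2 fold change 1.71, edgeR adjusted p = 0.0956). At 15199317 to 22061692 counts per library, 8 members with under 10 counts in some library are measured with low precision.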
